A study of Homo sapiens with 192 samples.

Results

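The genes described here encode the subunits of the constitutive proteasome, taken as every protein-coding gene whose symbol is PSMA, PSMB, PSMC or PSMD followed by a number, without the immunoproteasome genes PSMB8, PSMB9 and PSMB10. The rule found 37 of the 58243 genes listed. Their RNA was measured in the human colorectal cancer (CRC) lines HT29 and HCT116, and in LS513 and LS174T of the same disease. Every line was cultured both as a layer (2D) and in 3D, and 3 libraries of each made 8 groups and 24 libraries. No compound or genetic change was applied in any group, so the labels give growth condition and line as the differences. The study kept HCT116 in McCoy medium and the other lines in DMEM, so in comparisons between lines the medium and HCT116 cannot be told apart. Each line is a single established tumour line, and how the 3D cultures used for RNA were grown is not given in the sources used here. The labels do not state whether the libraries of a group came from separate cultures, so p-values measure the spread between these libraries, which may be technical.

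The proteasome degrades proteins that carry a ubiquitin chain. Its 20S core particle is a barrel of stacked alpha and beta rings, and the catalytic beta subunits face the inside. The 19S regulatory particle caps the barrel: its base holds a ring of ATPases that unfold the substrate and feed it inward, and its lid removes the ubiquitin chain. In human cells the genes of the particle are controlled by the transcription factor NFE2L1, which binds antioxidant response elements with a small MAF protein when the proteasome is inhibited. Proliferating tumour cells depend on the particle, and PSMB5 is the target of proteasome inhibitors used against myeloma.

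Of the 37 members, 31 that could be tested encode subunits of the particle. PSMD5, PSMD9 and PSMD10 carry a subunit symbol but encode chaperones that assemble the base and leave it afterwards. PSMC3IP is matched by its symbol only: it encodes a factor of meiotic recombination and is no subunit. PSMA8, the alpha subunit of the testis, had 0 counts in all 24 libraries, and PSMB11, the catalytic subunit of the thymus, had at most 1 count in any library. These remained below the floor of 3 counts per library and were not tested, which left 35 members.

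The smallest library total was 18723942 and the largest 34277421 counts. A floor of 3 counts equals 0.0875 to 0.16 CPM, the usual scaling of a count to the total of its library, and counting error was small for every member tested. The library with the lowest total was HT29 2D replicate 3. The members took between 0.545% and 0.991% of all counts of a library. CPM values are on the TMM scale of edgeR, and fold changes are log2 of 3D over 2D with their standard error (SE) from its quasi-likelihood test, fitted over all 24 libraries and 19387 genes, with p-values adjusted by the Benjamini-Hochberg method. With 3 libraries against 3, an exact permutation test of a single gene cannot give a p below 0.1, so it was not used for calls. The epithelial markers EPCAM, KRT8 and KRT18 were present in every library at 257 CPM or more. Among markers of other cell types, COL1A2 of fibroblasts and CD3E of T cells had 0 counts throughout and PTPRC of leukocytes at most 2. Others of these lists were present: LYZ had a median of 1383 CPM in HT29 2D and 2586 CPM in HT29 3D, CD14 reached 15.1 CPM and COL1A1 reached 21.8 CPM in HCT116. The 4 leukocyte markers summed to 1319 to 1431 CPM in HT29 2D and 2420 to 2672 CPM in HT29 3D and to under 5 CPM in the other lines. In HT29 nearly all of this sum was LYZ alone, while PTPRC and CD3E stayed at 0 to 2 counts. The part of these markers in the HT29 differences was not tested. VIL1 and CDX1, markers of intestinal epithelium, were close to 0 in HCT116. Other epithelial markers were low elsewhere: in HT29 2D the medians were 0.49 CPM for CDX1 and 1.64 CPM for CDX2. KRT20 was at 0.66 CPM in HCT116 2D and 0.74 CPM in LS174T 2D. CDH1 was at 23.8 CPM in LS513 2D and 23.5 CPM in LS174T 2D, beside 426 CPM in HT29 2D.

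Per exonic length, the beta subunit PSMB3 had the highest median level, 204 RPKM (CPM per 1000 exonic bases) over the 24 libraries, with a range from 117 to 325 RPKM. PSMA7, a subunit of the alpha ring, followed at 175 RPKM and PSMB4 at 152 RPKM. Among the catalytic subunits the medians were 122 RPKM for PSMB5, 102 RPKM for PSMB7 and 100.5 RPKM for PSMB6. At the low end stood the lid subunit PSMD6 (9.80 RPKM), the ATPases PSMC6 (9.89 RPKM) and PSMC1 (6.65 RPKM) and the chaperone PSMD9 (5.96 RPKM). These levels depend on the length used: per kilobase of its longest coding transcript PSMB4 led at 340.5 and PSMC1 was last among the subunits at 9.22. The value of PSMC1 is also uncertain because 18.5% of its 75-base stretches occur in other annotated transcripts, and the authors had removed reads that aligned more than once. The same share was 4.36% for PSMD4, 3.97% for PSMC6 and 2.12% for PSMD2. Of the exonic bases of PSMA1, 24.7% lie in a second gene of equal strand, and for PSMD9 this share was 19.9%. The 36 pseudogenes with a member's symbol took between 0.008% and 0.09% of the counts of the members.

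The promoter table of RefSeq (GRCh38.p14, 250 bases before to 50 after each start) held 32 of the 37 members. The core of the antioxidant response element, TGACNNNGC, was found on either strand in 9 of them (28.1%), against 17.9% of 15843 protein-coding genes. CCAAT, the box bound by NF-Y, occurred in 18 (56.3% against 42.1%). CCGGAAG, the core of ETS sites, occurred in 13 (40.6% against 16.5%). The NRF1 site (GCGC, any base, then TGCGC) occurred in 5 (15.6% against 9.67%), and TATAAA in 5 (15.6% against 12.4%). These matches describe letters only, and the motifs found in the stretches shown here did not overlap each other. Of the members with an entry, 15 were lower in 3D on average over the lines, and TGACNNNGC occurred in 5 of these and in 4 of the 15 other tested members. The stretches before the start that lie in no annotated exon are shown for 4 members, with motif letters in capitals. PSMD12 and PSMD3 are shown because they carry TGACNNNGC and were lower in 3D, PSMB3 because it carries the same letters and had no call, and PSMB5 because it is the drug target and holds none of the motifs in the stretch shown.
PSMD12, chr17:67366628-67366747, minus strand: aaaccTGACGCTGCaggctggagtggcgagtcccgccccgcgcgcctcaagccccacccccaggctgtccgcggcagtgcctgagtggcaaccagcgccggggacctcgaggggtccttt
PSMD3, chr17:39980677-39980796, plus strand: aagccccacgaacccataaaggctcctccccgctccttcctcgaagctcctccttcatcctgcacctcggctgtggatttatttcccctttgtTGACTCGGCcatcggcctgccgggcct
PSMB3, chr17:38752616-38752735, plus strand: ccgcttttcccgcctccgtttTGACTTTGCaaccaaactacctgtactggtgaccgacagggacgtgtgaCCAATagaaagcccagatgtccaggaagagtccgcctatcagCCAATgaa
PSMB5, chr14:23035231-23035350, minus strand: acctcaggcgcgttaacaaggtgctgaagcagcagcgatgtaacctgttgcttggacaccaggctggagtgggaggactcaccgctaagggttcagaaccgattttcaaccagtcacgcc
Counted from the start, TGACNNNGC began at -165 in PSMD12, at -37 in PSMD3 and at -104 in PSMB3, and PSMB3 held CCAAT at -55 and at -13.

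The comparison of 3D with 2D asked whether growth condition shifted the particle as a whole. Lid and base subunits were lower in 3D in several lines, as were PSMA1 and PSMB2 of the core particle in 2 lines each and PSMA4 in 1. The 3 catalytic subunits were not lower by the test in any line, and 17 of the 35 members had no call in any. In HT29, 12 of the 35 members were lower in 3D and 2 higher, where 19.6% of all genes tested were lower and 21.1% higher. In HCT116, 12 were lower and 0 higher (background 12.3% lower and 16.8% higher); at an unadjusted p under 0.05, 1 member was higher there. In LS174T, 6 were lower and 4 higher (background 9.15% and 13.1%). In LS513, 4 were lower and 0 higher (background 9.90% and 13.7%), with 1 higher at an unadjusted p under 0.05; DESeq2 called 7 lower, and with library totals as scaling 15 were lower with a median of -0.17. These counts include PSMC3IP and the chaperones, which are not subunits. Of the 31 subunits alone, 10 were lower in HT29, 11 in HCT116, 4 in LS174T and 3 in LS513. Higher were 1 in HT29, 3 in LS174T and 0 in HCT116 and LS513. The count of 3 lower of 31 in LS513 is near the background. The median log2 fold change of the members was -0.13 in HT29, -0.15 in HCT116, -0.039 in LS513 and 0.090 in LS174T, and over all genes tested it lay between 0.00 and 0.016 in each line. Scaling by library totals alone turned the LS174T median to -0.039, where the median of all genes was -0.075.

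Averaged over the 4 lines, 15 members were lower in 3D and 6 higher, beside 23.9% and 26.6% of all genes. Only PSMD11 and PSMD12 were lower in all 4 lines, a call that 2.46% of all genes tested had. A further 5 members were lower in 3 lines, 4 in 2 lines and 3 in 1 line, 4 were higher in at least 1 line, and 17 had no call in any line. No member was higher in 1 line and lower in another. Higher in all 4 lines were 0 members by edgeR, a call that 3.14% of all genes had, although 9 were above 0 in each line. The sign was below 0 in all 4 lines for 11 members and above 0 for 9, against 21.9% and 23.5% of all genes. With a log2 fold change past -0.5 required as well, the lower members were PSMD11, PSMD12, PSMD1 and PSMC3IP in HT29 (4 members, background 12.5%), PSMD12 in HCT116 (background 6.1%) and PSMC3IP in LS513 (5.36%) and LS174T (5.11%). No member was higher past 0.5 in HT29 (background 16.5%), LS513 (9.64%), HCT116 (12.8%) or LS174T (9.33%), nor past 1.5 (4.9%, 2.67%, 3.18% and 2.15% of all genes in the same order). Without any test, every 3D library was below every 2D library for 16 members in HT29 and above for 5, beside 25.6% and 27.3% of all genes. These numbers were 8 and 3 in LS513 (20% and 23.0%), 12 and 1 in HCT116 (17.6% and 22.8%) and 6 and 5 in LS174T (17.6% and 20.9%). Of the calls, 9 of 14 in HT29 and 8 of 12 in HCT116 held under each of 14 other scalings, filters, models and omitted libraries (fold cutoffs not counted), and 1 of 10 in LS174T and 1 of 4 in LS513 did, in each case PSMC3IP. The 2 higher calls in HT29 were reduced to 1 without 2D replicate 3 or 3D replicate 3 or 4. The 4 lower calls in LS513 were reduced to 2 without 2D replicate 1 and to 1 without 2D replicate 2 or 3D replicate 1 or 2. The 6 lower calls in LS174T were reduced to 1 without 2D replicate 1 or 3 or 3D replicate 1, and to 3 without replicate 2 of 2D or of 3D.

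**Figure D1:**
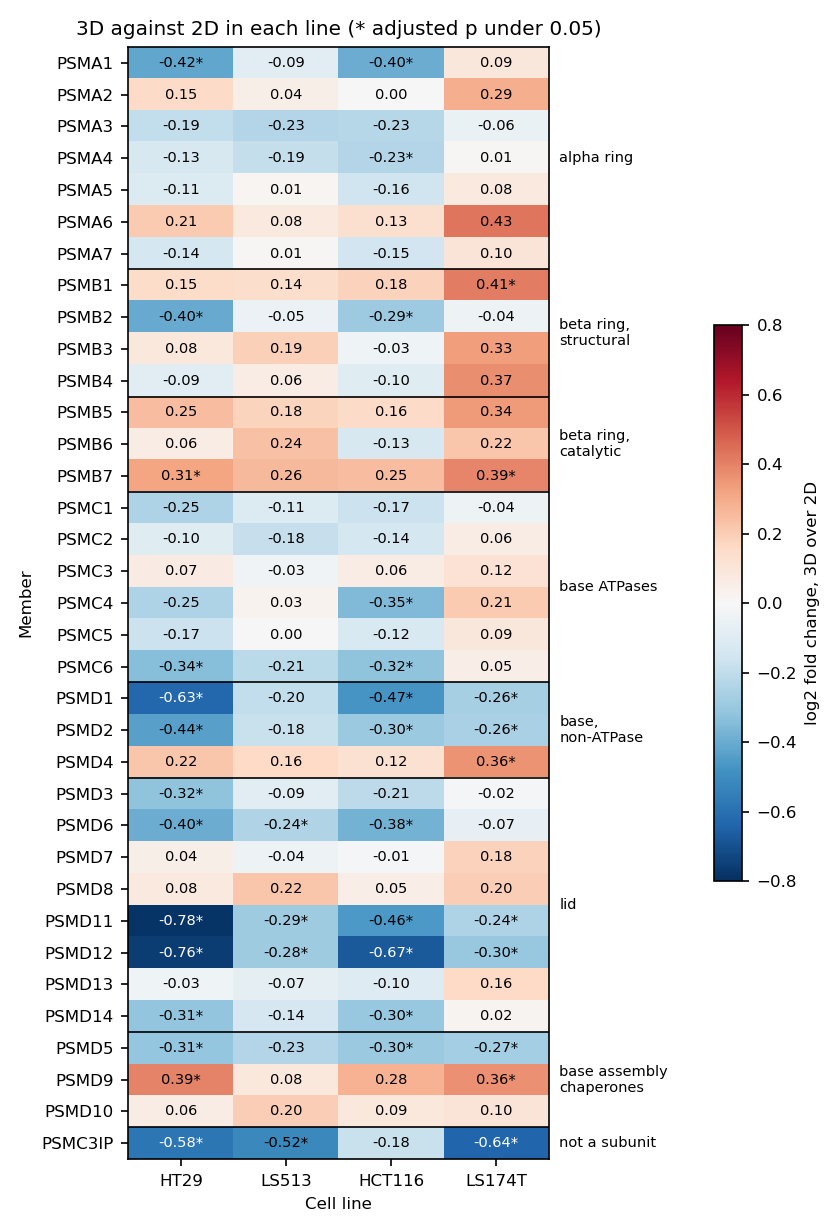
Log2 fold change of 3D over 2D for the 35 tested members (rows, by place in the particle) in the 4 lines (columns), with an asterisk where the adjusted p was under 0.05. Blue cells, lower in 3D, are common in the lid, base and alpha rows of HT29 and HCT116, down to -0.78 for PSMD11 in HT29. Of the 7 alpha rows, 5 are below 0 in each of these lines. The 3 catalytic rows are red except PSMB6 in HCT116 at -0.13.

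The lid subunits PSMD11 and PSMD12 had the largest decreases in HT29, and in HCT116 PSMD12 was followed by PSMD1 of the base and then by PSMD11. PSMD11 (ENSG00000108671, chr17:32444261-32483318, plus strand) encodes a scaffold subunit of the lid. In HT29 its libraries had 447, 484 and 479 CPM in 2D and 279, 253 and 288 CPM in 3D. In HCT116 they had 299.7, 284 and 288 CPM in 2D and 197, 206 and 230.1 CPM in 3D. Every 3D library of these lines was below every 2D library. The log2 fold change was -0.78 (SE 0.078, adjusted p = 9.40e-08) in HT29 and -0.46 (SE 0.078, adjusted p = 1.31e-04) in HCT116. In LS513 the libraries had 183, 192 and 168 CPM in 2D and 142, 142 and 162 CPM in 3D, a log2 difference of -0.29 (SE 0.078, adjusted p = 0.00999). In LS174T they had 180.3, 175 and 183 CPM in 2D and 154, 147 and 153 CPM in 3D, a log2 difference of -0.24 (SE 0.078, adjusted p = 0.0286). The groups did not overlap in these lines either, but the distance was smaller. The call in LS513 was lost without 2D replicate 2 or 3D replicate 1 or 2 (adjusted p = 0.054 to 0.0722), and that in LS174T without 2D replicate 1, 2 or 3 or 3D replicate 1 or 2 (adjusted p = 0.052 to 0.108).

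PSMD12 (ENSG00000197170, chr17:67337916-67366627, minus strand), its neighbour in the lid and also a scaffold subunit, was also lower in 3D in all 4 lines. In HT29 the libraries had 196, 226 and 233 CPM in 2D and 123, 138 and 126 CPM in 3D. In HCT116 they had 237, 229 and 231 CPM in 2D and 142, 136 and 159 CPM in 3D. The 3D libraries lay below all 2D libraries in both lines. The log2 fold change was -0.76 (SE 0.093, adjusted p = 1.57e-06) in HT29 and -0.67 (SE 0.093, adjusted p = 1.28e-05) in HCT116. In LS513 the values were 79.4, 85.8 and 75.2 CPM in 2D and 60.7, 59.96 and 76.99 CPM in 3D, and the groups overlapped through LS513 3D replicate 3. In LS174T they were 94.6, 93.98 and 97.4 CPM in 2D and 74.8, 77.7 and 79.7 CPM in 3D, with no overlap. The log2 fold changes there were -0.28 (SE 0.094, adjusted p = 0.0314) and -0.30 (SE 0.094, adjusted p = 0.0246). These calls were lost in LS513 without 2D replicate 1 or 2 or 3D replicate 1 or 2 (adjusted p = 0.0719 to 0.155) and in LS174T without 2D replicate 1, 2 or 3 or 3D replicate 1 or 2 (adjusted p = 0.0544 to 0.08). The promoter stretch of PSMD12 is the first printed above.

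Of the other lid subunits, PSMD6, a scaffold subunit, was lower in HT29 at -0.40 (adjusted p = 7.21e-04), in HCT116 at -0.38 (adjusted p = 0.00163) and in LS513 at -0.24 (adjusted p = 0.041). The LS513 call was lost without 2D replicate 1 or 2 or 3D replicate 1 or 2 (adjusted p = 0.0957 to 0.16). PSMD14, the deubiquitinase that cuts the chain from the substrate, was lower in HT29 at -0.31 (adjusted p = 0.0054) and in HCT116 at -0.30 (adjusted p = 0.0102), and its HT29 call was lost with all genes kept and with a replicate block. PSMD3 was lower in HT29 at -0.32 (adjusted p = 0.0138), a call lost without 2D replicate 1 or 2 or 3D replicate 3 or 4 (adjusted p = 0.0637 to 0.0909). PSMD7, the partner of PSMD14, lay between -0.039 and 0.18 in the 4 lines with no call, and PSMD8 and PSMD13 had none. Of the 8 lid genes with a PSMD symbol, 5 were lower in HT29, 4 in HCT116, 3 in LS513 and 2 in LS174T, where 19.6%, 12.3%, 9.9% and 9.15% of all genes were lower in the same order. MKI67, a marker of proliferating cells, had log2 fold changes of -1.21 (adjusted p = 2.07e-05) in HT29 and -0.92 (adjusted p = 0.00118) in LS174T, -0.48 (adjusted p = 0.056) in LS513 and -0.45 (adjusted p = 0.0643) in HCT116, and its part in these decreases was not tested. In bulk RNA, fewer cells of a kind and less RNA per cell cannot be told apart.

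In the base, PSMD1 (ENSG00000173692, chr2:231056864-231172827, plus strand) is the large scaffold that receives ubiquitin receptors. Its libraries had 195, 211 and 193 CPM in 2D and 131, 125 and 131 CPM in 3D in HT29. In HCT116 they had 323, 321 and 356 CPM in 2D and 216, 229 and 274 CPM in 3D. In LS174T they had 278, 257 and 276 CPM in 2D and 219, 245 and 212 CPM in 3D. The groups were apart in all of these lines, by log2 fold changes of -0.63 (SE 0.088, adjusted p = 8.34e-06), -0.47 (SE 0.088, adjusted p = 3.16e-04) and -0.26 (SE 0.088, adjusted p = 0.0342). In LS513 the libraries had 335, 324 and 286 CPM in 2D and 273, 268 and 285 CPM in 3D, which did not overlap, and the log2 fold change of -0.20 (adjusted p = 0.113) did not pass. The LS174T call was lost without 2D replicate 1 or 3 or 3D replicate 1 or 3 (adjusted p = 0.0867 to 0.101). PSMD2, the other large scaffold, was lower in HT29 at -0.44 (adjusted p = 3.79e-04), in HCT116 at -0.30 (adjusted p = 0.0117) and in LS174T at -0.26 (adjusted p = 0.0331). Its HCT116 call was lost without 3D replicate 1 (adjusted p = 0.0697) and its LS174T call without 2D replicate 1 or 3 or 3D replicate 1 or 3 (adjusted p = 0.0768 to 0.134). PSMD4, a ubiquitin receptor of the base, went the other way in LS174T, from 130.2 ± 6.12 to 167 ± 38.8 CPM (SD, n = 3), a log2 difference of 0.36 (SE 0.13, adjusted p = 0.0442). The growth conditions overlapped, and the highest value was LS174T 3D replicate 2 at 210.1 CPM, beside 156 and 135 CPM in the others. The call was lost without 2D replicate 1, 2 or 3 or 3D replicate 1 or 2 (adjusted p = 0.0501 to 0.357).

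Of the 6 ATPases that unfold substrates, PSMC4 and PSMC6 had calls. PSMC4 was lower in HCT116 at -0.35 (SE 0.10, adjusted p = 0.0115), with values of -0.25 (adjusted p = 0.0589) in HT29 and 0.21 (adjusted p = 0.139) in LS174T. PSMC6 was lower in HT29 at -0.34 (adjusted p = 0.0208) and in HCT116 at -0.32 (adjusted p = 0.0353). Its calls were lost in HT29 without 2D replicate 1 or 2 or 3D replicate 1 or 3 (adjusted p = 0.0862 to 0.153) and in HCT116 without 2D replicate 1 or 3 or 3D replicate 1 or 2 (adjusted p = 0.0563 to 0.133). PSMC2, PSMC3 and PSMC5 had no call, and PSMC1 passed only in the mean over the lines at -0.14 (adjusted p = 0.028).

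**Figure D2:**
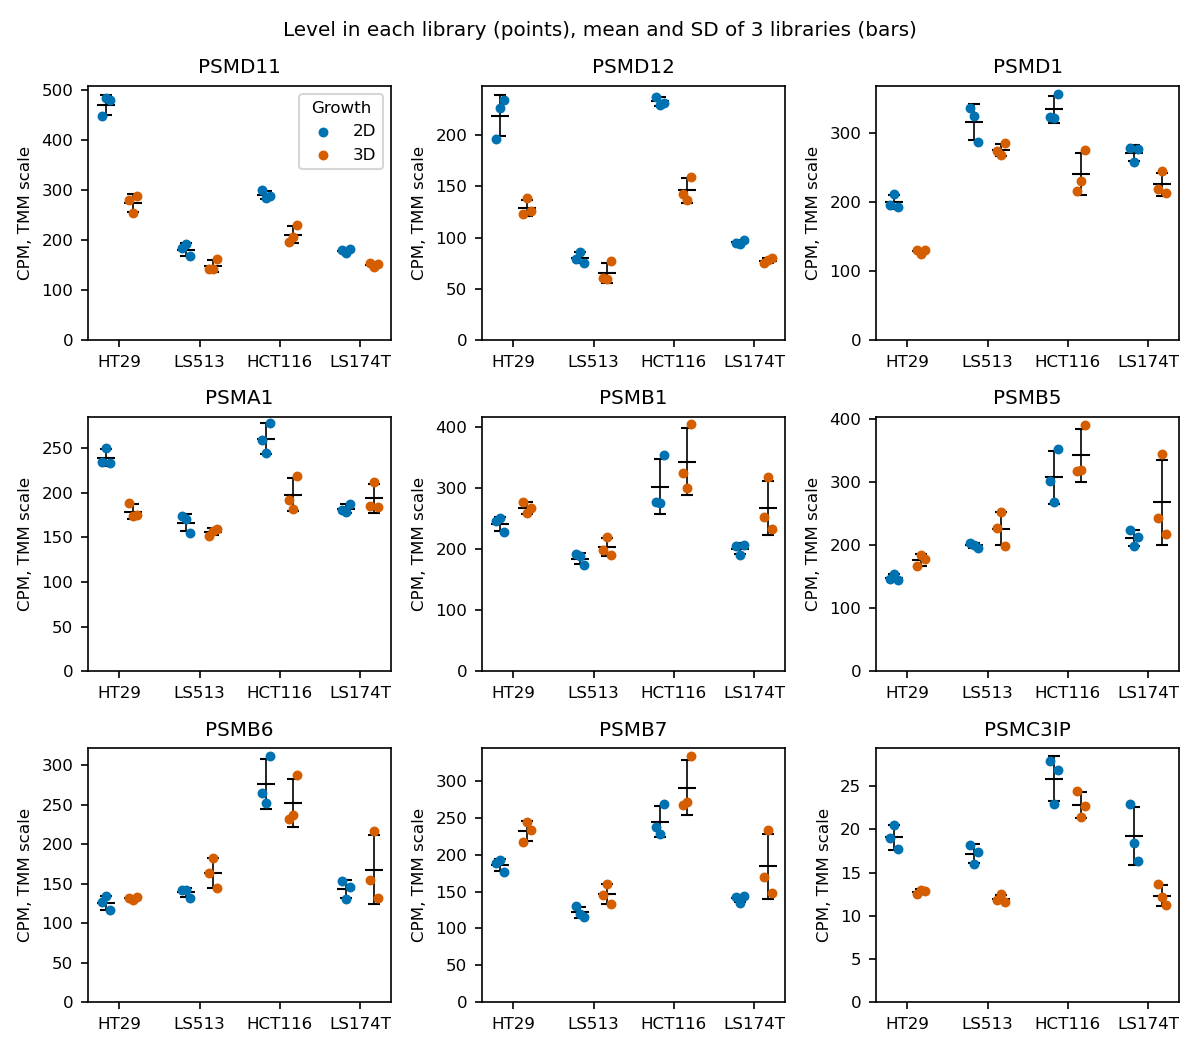
Level of 9 members in each library, in CPM on the TMM scale, by line and growth condition (blue 2D, orange 3D), with bars for mean and SD of 3 libraries. In HT29 and HCT116 the 3D points of PSMD11, PSMD12, PSMD1 and PSMA1 lie below all 2D points, and in LS174T the highest 3D point of PSMB1, PSMB5, PSMB6 and PSMB7 is replicate 2.

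In the alpha ring, PSMA1 (ENSG00000129084, chr11:14504874-14643635, minus strand), a structural subunit, was lower in 3D in HT29 and HCT116. The libraries had 234, 251 and 233 CPM in 2D and 189, 174 and 175 CPM in 3D in HT29. They had 259, 245 and 279 CPM in 2D and 192, 182 and 218 CPM in 3D in HCT116. Neither line overlapped, with log2 fold changes of -0.42 (SE 0.081, adjusted p = 2.89e-04) and -0.40 (SE 0.081, adjusted p = 7.14e-04). LS513 had 174, 170.4 and 156 CPM in 2D and 152, 157 and 159.8 CPM in 3D, and LS174T 181, 178 and 188 CPM in 2D and 185, 213 and 184 CPM in 3D. The groups overlapped in both, at -0.092 (adjusted p = 0.455) and 0.090 (adjusted p = 0.449). PSMA4 was lower in HCT116 at -0.23 (adjusted p = 0.0229), a call lost without 2D replicate 3 or 3D replicate 1 or 2 (adjusted p = 0.0596 to 0.0875). The other alpha subunits had no call in any line. PSMA6 had its highest value, 0.43, in LS174T (adjusted p = 0.0669), and its mean over the lines passed at 0.21 (adjusted p = 0.0379). PSMA3 went the other way, at -0.19 (adjusted p = 0.0888) in HT29, -0.23 (adjusted p = 0.063) in LS513 and -0.23 (adjusted p = 0.0583) in HCT116. Its 3D libraries lay below all 2D libraries in HT29, LS513 and HCT116. They overlapped in LS174T at -0.055, and the mean over the lines passed at -0.18 (adjusted p = 0.00193).

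PSMA7 (ENSG00000101182, chr20:62136735-62143440, minus strand) had no call for growth. Its libraries had 709, 749.7 and 666 CPM in 2D and 579, 692 and 654 CPM in 3D in HT29, and 317, 332 and 293 CPM in 2D and 301, 353 and 295 CPM in 3D in LS513. In HCT116 they had 309, 275 and 361 CPM in 2D and 263, 260.1 and 329 CPM in 3D, and in LS174T 246, 202 and 210.4 CPM in 2D and 213, 303 and 191 CPM in 3D. The growth conditions overlapped in every line, and HT29 stood above the others in each library.

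The 3 constitutive catalytic subunits were not lower in 3D by the test in any line. Of all genes tested, 9.15% (LS174T) to 19.6% (HT29) were lower, so 0 of 3 genes is near the background. PSMB7 (ENSG00000136930, chr9:124353466-124415444, minus strand) carries the trypsin-like activity. In HT29 its libraries had 188, 193 and 177 CPM in 2D and 217, 244 and 233 CPM in 3D. In LS174T they had 143, 135 and 144 CPM in 2D and 170.02, 234 and 148 CPM in 3D. Neither line overlapped, at log2 fold changes of 0.31 (SE 0.12, adjusted p = 0.0438) and 0.39 (SE 0.12, adjusted p = 0.0269). In LS513 the libraries had 131, 119 and 116 CPM in 2D and 146, 160.01 and 133 CPM in 3D, without overlap, and in HCT116 237, 227 and 268 CPM in 2D and 267, 271 and 333 CPM in 3D, where the highest 2D library passed the lowest 3D library. These did not pass, at 0.26 (adjusted p = 0.131) and 0.25 (adjusted p = 0.131), and the mean over the 4 lines did at 0.30 (SE 0.061, adjusted p = 2.25e-04). The HT29 call was lost without 2D replicate 3 or 3D replicate 3 or 4 (adjusted p = 0.057 to 0.095) and the LS174T call without 2D replicate 1, 2 or 3 or 3D replicate 2 (adjusted p = 0.0616 to 0.261).

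PSMB5 (ENSG00000100804, chr14:23016543-23035230, minus strand) carries the chymotrypsin-like activity. Its libraries had 146, 154 and 144 CPM in 2D and 166, 184 and 178 CPM in 3D in HT29, which did not overlap. They had 203, 200.3 and 195 CPM in 2D and 228, 252 and 199 CPM in 3D in LS513 and 302, 268 and 352 CPM in 2D and 317, 319 and 391 CPM in 3D in HCT116. In LS174T they had 223, 198 and 213 CPM in 2D and 242, 344 and 217 CPM in 3D. The growth conditions overlapped in these 3 lines. No line passed on its own, with values from 0.16 to 0.34, and the mean over the lines was 0.23 (SE 0.065, adjusted p = 0.00463). PSMB6 (ENSG00000142507, chr17:4796144-4798503, plus strand), which carries the caspase-like activity, had 127, 135 and 117 CPM in 2D and 132, 129.7 and 133 CPM in 3D in HT29. In LS513 it had 142, 142 and 133 CPM in 2D and 164, 183 and 145 CPM in 3D. HCT116 had 264, 253 and 312 CPM in 2D and 233, 238 and 288 CPM in 3D, and LS174T 154, 131 and 146 CPM in 2D and 155, 217 and 132 CPM in 3D. Only LS513 did not overlap, and neither a line nor the mean over lines passed, the latter at 0.10 (adjusted p = 0.236).

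Of the structural beta subunits, PSMB1 (ENSG00000008018, chr6:170535117-170553341, minus strand) was higher in 3D in LS174T. Its libraries there had 206, 191 and 208 CPM in 2D and 253, 319 and 233 CPM in 3D, with no overlap and a log2 difference of 0.41 (SE 0.12, adjusted p = 0.015). In HT29 they had 246, 251 and 228 CPM in 2D and 277, 259 and 267 CPM in 3D, also without overlap, at 0.15 (adjusted p = 0.333). In LS513 they had 192, 189 and 174 CPM in 2D and 199, 221 and 192 CPM in 3D, and in HCT116 278, 277 and 355 CPM in 2D and 326, 301 and 406 CPM in 3D, both with overlap. The LS174T call was lost without 2D replicate 2 or 3D replicate 2 (adjusted p = 0.0643 to 0.115). PSMB2 was lower in HT29 at -0.40 (adjusted p = 3.46e-04) and in HCT116 at -0.29 (adjusted p = 0.0075). PSMB3 and PSMB4, among the members with the highest levels per length, had no call.

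Among the assembly chaperones named PSMD, PSMD5 was lower in HT29 at -0.31 (adjusted p = 0.00897), in HCT116 at -0.30 (adjusted p = 0.0176) and in LS174T at -0.27 (adjusted p = 0.0363). Its calls were lost in HT29 without 2D replicate 1 or 2 or 3D replicate 1 or 3 (adjusted p = 0.0545 to 0.102), in HCT116 without 2D replicate 1 or 2 or 3D replicate 1 (adjusted p = 0.0567 to 0.0742) and in LS174T without 2D replicate 1, 2 or 3 or 3D replicate 1 or 2 (adjusted p = 0.07 to 0.125). PSMD9 was higher in HT29, from 44.8 ± 2.73 to 58.99 ± 2.43 CPM (SD, n = 3), at 0.39 (adjusted p = 0.0153), and in LS174T at 0.36 (adjusted p = 0.0395). The LS174T call was lost without 2D replicate 1, 2 or 3 or 3D replicate 2 (adjusted p = 0.0551 to 0.348). PSMD10, also known as gankyrin, had no call.

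PSMC3IP (ENSG00000131470, chr17:42572315-42577831, minus strand) had the largest decreases outside HT29 and HCT116. It had 19.1, 20.5 and 17.7 CPM in 2D and 12.5, 13.04 and 12.9 CPM in 3D in HT29. It had 18.2, 15.98 and 17.4 CPM in 2D and 11.8, 12.5 and 11.6 CPM in 3D in LS513. In LS174T it had 22.9, 18.4 and 16.4 CPM in 2D and 13.7, 12.1 and 11.2 CPM in 3D. No 3D library reached a 2D library in these lines, with log2 fold changes of -0.58 (SE 0.12, adjusted p = 5.27e-04), -0.52 (SE 0.12, adjusted p = 0.00256) and -0.64 (SE 0.12, adjusted p = 6.19e-04). In HCT116 it had 27.9, 22.9 and 26.9 CPM in 2D and 24.4, 21.4 and 22.7 CPM in 3D, which overlapped, at -0.18 (adjusted p = 0.261). The difference between lines was not past the test (adjusted p = 0.162).

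The summed levels of the particle were compared through the ratio of 19S to 20S subunits within each library, which does not depend on the scaling between libraries. In HT29 it was 1.08, 1.10 and 1.12 in 2D and 0.964, 0.941 and 0.963 in 3D. In LS513 it was 1.44, 1.42 and 1.41 in 2D and 1.30, 1.23 and 1.34 in 3D. In HCT116 it was 1.21, 1.22 and 1.15 in 2D and 1.06, 1.10 and 1.08 in 3D. Every 3D library was thus below every 2D library in these lines. In LS174T it was 1.17, 1.13 and 1.15 in 2D and 1.01, 0.904 and 1.04 in 3D, again without overlap. LS513 had the highest ratio of the 4 lines in each growth condition. These are sums over the members and were not tested. The lid made up 27.2% to 28.6% of the summed CPM in HT29 2D and 25.1% to 25.8% in HT29 3D. It made up 22.5% to 22.7% in LS513 2D and 21.4% to 22.3% in LS513 3D. The share was 23.0% to 23.9% in HCT116 2D and 21.9% to 22.3% in HCT116 3D. In LS174T it was 22.9% to 23.2% in 2D and 20.9% to 22.7% in 3D. For the 8 lid genes with a PSMD symbol this share was lower in 3D without overlap in all 4 lines. The lid subunit SEM1 lies outside the symbol rule and is left out of it. SEM1 had 91.3 to 94.8 CPM in 2D and 103 to 117 CPM in 3D in LS513, and 106 to 110 and 123 to 156 CPM in LS174T. With SEM1 added, the shares of the growth conditions overlap in LS513 and LS174T.

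**Figure D3:**
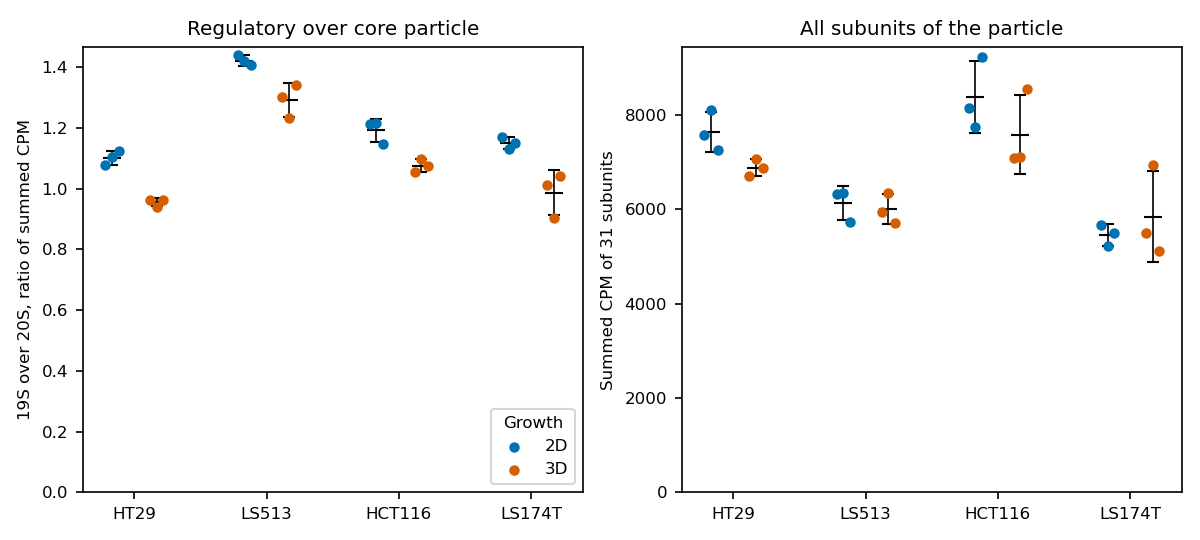
Left, ratio of summed CPM of 17 regulatory to 14 core particle subunits, and right, summed CPM of all 31 subunits, in each library by line and growth condition (blue 2D, orange 3D), with mean and SD of 3 libraries. The ratio is lower in 3D without overlap in all 4 lines, while the sum on the right, on the TMM scale, overlaps between growth conditions except in HT29, where 3D lies between 6702 and 7062 CPM and 2D between 7242 and 8098 CPM.

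On the TMM scale the sum of all 31 subunits overlapped between growth conditions in 3 of the 4 lines. As a share of library counts it did not overlap in LS513, at 0.573% to 0.635% in 2D and 0.531% to 0.567% in 3D. The TMM sum was 7634 ± 433 CPM in HT29 2D and 6881 ± 179.8 CPM in HT29 3D, and 8369 ± 762 and 7577 ± 841 CPM in HCT116 (SD, n = 3). In LS513 it was 6129 ± 351 and 6000 ± 316 CPM, and in LS174T 5458 ± 229 and 5844 ± 953 CPM. The spread in LS174T 3D came from replicate 2 at 6924 CPM, beside 5487 and 5120 CPM in the others. Over all genes with 100 or more counts this library stood apart too. Its mean chi-square per degree of freedom was 111 against replicate 1 and 167 against replicate 3, beside 18.2 between replicates 1 and 3. By edgeR, 0 members were higher in 3D in LS174T without 3D replicate 2 or without 2D replicate 2, 1 without 2D replicate 1 or 3, and 11 without 3D replicate 3. HCT116 replicate 3 was the highest library of its group in 2D (9217 CPM) and in 3D (8548 CPM).

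The growth effect itself differed between lines for 6 members, beside 17.1% of all genes tested. These were PSMD11 (adjusted p of the interaction test = 0.00353), PSMA1 (0.0044), PSMD12 (0.0148), PSMC4 (0.0221), PSMB2 (0.0425) and PSMD1 (0.0452). For PSMD11 the effect ran from -0.78 in HT29 to -0.24 in LS174T, and for PSMD12 from -0.76 to -0.28 in LS513. For PSMC4 it ran from -0.35 in HCT116 to 0.21 in LS174T, where it did not pass. All of these were lowest in HT29 or HCT116. The number was 3 without LS174T 2D replicate 2, 2 with library totals as scaling, 2 with all genes kept and 0 with a replicate block.

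In 2D the levels differed between lines for 33 of the 35 tested members, beside 91.7% of all genes. HCT116 had the highest mean for 23 members, HT29 for 9 and LS513 for 3. LS174T had the lowest for 15, LS513 for 12 and HT29 for 8. LS174T was below HCT116 by the test for 31 members and above it for 0, with a median log2 difference of -0.54 and 68.3% of all genes different in either direction. HCT116 was above LS513 for 25 members and below for 0 (background 68.3%). HCT116 was above HT29 for 20 and below for 5 (background 68.8%), and LS513 was above HT29 for 7 and below for 16 (60.6%). LS174T was above HT29 for 4 and below for 19 (64.6%), and above LS513 for 4 and below for 10 (57.6%).

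PSMA7 had the widest range over lines in 2D, 1.69 on the log2 scale. Its mean was 708 ± 42.1 CPM in HT29, 315 ± 43.4 in HCT116, 314 ± 19.4 in LS513 and 219.6 ± 23.1 in LS174T (SD, n = 3). LS513 was below HT29 by a log2 difference of -1.17 (SE 0.14, adjusted p = 1.19e-07). HCT116 and LS513 did not differ beyond their spread (adjusted p = 0.995), and LS174T was below HCT116 by -0.52 (SE 0.14, adjusted p = 0.00206). PSMD12 followed with a range of 1.54. Its mean was 232 ± 4.25 CPM in HCT116, 218 ± 19.97 in HT29, 95.3 ± 1.84 in LS174T and 80.1 ± 5.35 in LS513. HCT116 and HT29 did not differ beyond their spread (adjusted p = 0.401), and HT29 was far above LS174T, with a log2 difference of -1.19 (SE 0.094, adjusted p = 8.70e-11) for LS174T over HT29. PSMD11 had a range of 1.39, with 470.05 ± 19.8 CPM in HT29, 291 ± 8.11 in HCT116, 181 ± 12.4 in LS513 and 179 ± 3.87 in LS174T. Neighbouring LS513 and LS174T did not differ beyond their spread (adjusted p = 0.911). The lines with the highest 2D levels of PSMD11 and PSMD12, HT29 and HCT116, were those with the larger decreases in 3D. The same 2D libraries enter both the level and the decrease, so this is a description, and a relation between them was not tested.

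**Figure D4:**
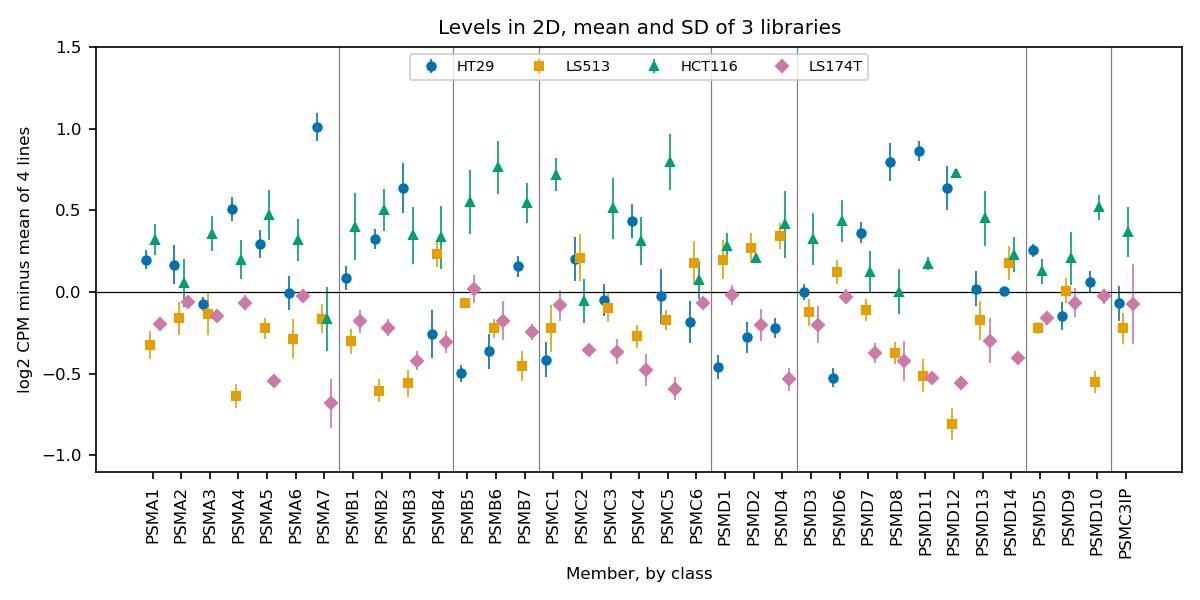
Mean log2 CPM of each tested member in 2D minus its mean over the 4 lines, with SD of 3 libraries, by place in the particle. HT29 (blue circles) stands highest for PSMA7, PSMD8 and PSMD11, HCT116 (green triangles) for 23 of the 35 members, and LS174T (pink diamonds) lowest for 15.

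Across the 35 members the growth effect was ranked lower in members with longer coding sequences. Spearman's rank correlation between the log2 fold change and the longest coding sequence was between -0.48 and -0.45 in the 4 lines, and between -0.32 and -0.18 over 14700 protein-coding genes. With the percent of G and C bases in the transcript it was between 0.24 and 0.45 over the members. Over the protein-coding genes this second correlation was between 0.30 and 0.38. Genes are not independent replicates, and these values are descriptions. Of the 19 members with a coding sequence under 1000 bases, 5 were higher and 6 lower in the mean over lines, and of the 16 longer ones 1 was higher and 9 lower, beside 26.6% higher and 23.9% lower of all genes. All 14 core particle subunits fall under that length, as do PSMD7 and PSMD14 of the lid. The part of length, or of the percent of G and C bases, in the growth effect was not tested.

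**Figure D5:**
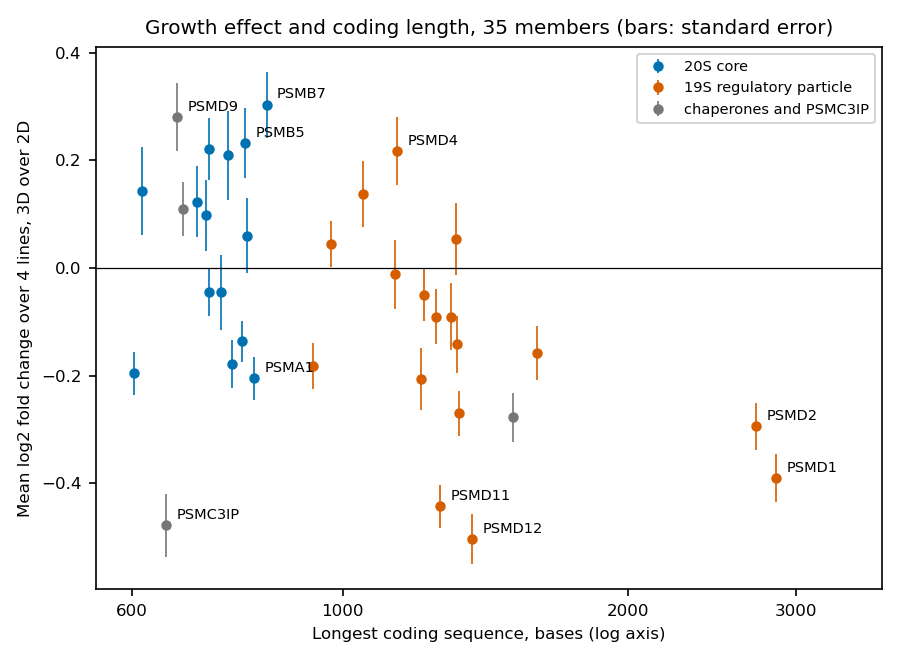
Mean log2 fold change of 3D over 2D over the 4 lines, with standard error, against the longest coding sequence in bases (log axis) for the 35 tested members, coloured by particle. The scaffolds PSMD1 and PSMD2 are the longest and lie at -0.39 and -0.29, PSMB7 at 0.30 is highest, and PSMC3IP at -0.48 is a short gene far below the line of 0.

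Other genes of the ubiquitin and proteasome pathway were grouped by function. The immunoproteasome subunits PSMB8, PSMB9 and PSMB10 replace the catalytic subunits, and all 3 were higher in 3D in HT29 and HCT116 and had no call in LS513 and LS174T. PSMB8 had 6.79, 4.78 and 8.77 CPM in 2D and 18.6, 17.6 and 22.3 CPM in 3D in HT29, and per exonic length its level was 0.018 to 0.036 of that of PSMB5 in 2D and 0.056 to 0.074 in 3D. In LS513 the ratio was 0.54 to 0.59 in 2D and 0.54 to 0.57 in 3D. PSMB9 in HT29 2D was at 0.137, 0.0344 and 0.0548 CPM, near the floor, so no size of its increase is given there. PSMB8 was also low in HCT116, at 0.483, 0.431 and 0.770 CPM in 2D and 1.73, 1.67 and 1.10 CPM in 3D. The log2 fold changes of the 3 genes ran from 0.41 to 0.51 in LS174T, without a call, and from 0.50 to 1.92 in HCT116. The activators PSME1 and PSME2 were higher in HT29 at 0.49 and 0.33 and in HCT116 at 0.88 and 0.52. The activators PSME3 and PSME4 were lower in all 4 lines, by values from -0.46 to -0.31 and from -0.597 to -0.296. SEM1, the smallest lid subunit, was higher in HT29 at 0.42 (adjusted p = 0.00332) and in LS174T at 0.34 (adjusted p = 0.0259), and the ubiquitin receptor ADRM1 had no call.

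Of the 6 other assembly chaperones, 2 were lower in HT29, 3 in HCT116 and 1 in LS513, beside 19.6%, 12.3% and 9.9% of all genes. With 6 genes, the counts in HT29 and LS513 were not far from these shares. PSMG2 was higher in LS513 at 0.21 (adjusted p = 0.0431). POMP, the maturation factor of the core particle, was lower in HT29 at -0.52 (adjusted p = 6.32e-04) and HCT116 at -0.37 (adjusted p = 0.0123), and PSMG1 was lower in these and in LS513 at -0.76 (adjusted p = 6.32e-06). Of the 8 genes that control transcription of the proteasome genes or import of the particle, the small MAF gene MAFF was higher in all 4 lines, by 1.22 to 1.49, and DDI2, the protease that activates NFE2L1, was lower in all 4, from -0.72 to -0.58. MAFG, another small MAF gene, was lower in LS174T at -0.48 (adjusted p = 0.0191), and NGLY1, which deglycosylates NFE2L1, was higher in LS513 at 0.29 (adjusted p = 0.00786) and in HCT116 at 0.56 (adjusted p = 1.48e-05). NFE2L1 passed in no line, with a mean of 0.21 (adjusted p = 0.00115). Of the 12 deubiquitinases, ligases and shuttles that bind the particle, 10 were lower in HT29, 7 in HCT116, 4 in LS174T and 2 in LS513, beside 19.6%, 12.3%, 9.15% and 9.9% of all genes. USP14, the deubiquitinase of the base, was at -0.76 (adjusted p = 7.53e-07) in HT29, and the shuttle RAD23B at -0.73 (adjusted p = 2.41e-05).

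Of the 8 genes of the p97 unfoldase, 3 were lower in HT29 and 2 in HCT116, the cofactor UBXN1 was higher in HT29 and LS174T, and VCP itself was at -0.42 (adjusted p = 0.00138) in HT29. Among other large complexes, the 8 subunits of the CCT chaperonin had a median of -0.44 in HT29, -0.38 in HCT116, -0.21 in LS513 and -0.085 in LS174T, and 5 were lower in HT29, 5 in HCT116, 3 in LS513 and no subunit in LS174T. Of the 9 subunits of the COP9 signalosome, which resembles the lid, 4 were lower in HT29, 5 in HCT116, 1 in LS513 and 1 in LS174T. Over all genes the shares lower were 19.6%, 12.3%, 9.9% and 9.15% in the same order, so the COP9 counts in LS513 and LS174T were near the background.

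Within lines, the levels of most members followed the mean of the other subunits. Over the 24 libraries, after each line's mean was removed, Pearson's r with that mean was 0.93 for PSMA7, 0.92 for PSMD13 and 0.90 for PSMC4, and it was lowest for PSMD5 (0.21), PSMC3IP (0.24), PSMD9 and PSMB7 (0.30 each), PSMD12 and PSMD11 (0.36 each). The libraries share their depth scaling and growth condition, so these are descriptions.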

How the data were processed

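Stranded single-end RNA-seq of 75 bases was made from 4 CRC lines. The authors trimmed reads with Trim Galore 0.4.1, aligned them with STAR, removed reads that aligned more than once and counted genes with HTSeq 0.5.3. The study's methods name Ensembl 91, whereas the submitters' processing notes name hg19, and gene models here came from GENCODE 29 (GRCh38). The authors deposited raw counts of genes, 1 file per technical replicate. They were summed over 8 technical replicates per library (7 for HT29 3D replicate 4).

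Counts were filtered with filterByExpr, scaled by TMM and fitted with the robust quasi-likelihood test of edgeR 4.0.16 (R 4.3.3), with 1 coefficient per group over 24 libraries. Interaction and 2D line differences came from the same model, with adjusted p under 0.05 as threshold. Alternatives were other scalings, no filter, a replicate block, DESeq2 1.42.0, the 6 libraries of a line alone, fold cutoffs and leaving out each library. On simulated HT29 counts edgeR called 47 of 109 genes changed by 0.5 (log2) and 88 of 91 changed by 1. Members, gene lists and named genes (members called in all lines, the largest changes, the widest ranges and the catalytic subunits) were chosen with earlier results of these data known. A further gene list is not reported here.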

Additional observations from a re-analysis of the deposited data

Results flagged for a closer look

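The growth effect differed between the 4 lines by the interaction test of edgeR for 6 of the 35 members, a share equal to the 17.1% of all genes tested. The adjusted p was 0.00353 for PSMD11, 0.0044 for PSMA1, 0.0148 for PSMD12, 0.0221 for PSMC4, 0.0425 for PSMB2 and 0.0452 for PSMD1. It was 0.00308 for PSMB8 and 3.04e-05 for PSMB9 of the immunoproteasome. PSMD11 and PSMD12 were lower in 3D in every line and differed in size, whereas PSMB8 and PSMB9 were higher in HT29 and HCT116 and had no call in LS513 and LS174T.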

How the results depend on the processing

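No value changed direction past the test. With library totals as scaling, LS513 had 15 members lower with a median of -0.17, LS174T had 1 higher, and 2 members differed between lines. With all genes kept, LS513 had 1 lower, LS174T 8 higher and 1 lower, and 2 differed between lines. DESeq2 gave 7 lower in LS513 and 7 higher in LS174T. With the 6 libraries of a line alone, HT29 had 4 higher, LS513 1 higher, and LS174T 0 higher and 1 lower. With the cutoffs of the study, and likewise past a log2 fold change of 0.5, HT29 had 0 higher and 4 lower, LS513 1 lower, HCT116 1 lower, and LS174T 0 higher and 1 lower. The replicate numbers did not pair the libraries (r between -0.21 and 0.22). With the replicate block, the median log2 fold change of members in HT29 was -0.0689, HT29 had 1 higher, LS513 1 lower, LS174T 1 higher and 1 lower, and 0 members differed between lines. In HT29 only replicates 1 and 3 occur in both growth conditions, so its growth effect under the block rests on these.

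Without 1 library at a time, HT29 had 1 to 2 members higher and 9 to 12 lower, LS513 0 higher and 1 to 5 lower, HCT116 0 higher and 8 to 15 lower, and LS174T 0 to 11 higher and 1 to 4 lower. In the mean, 5 to 8 were higher and 14 to 16 lower, 3 to 7 differed between lines and 32 to 34 between lines in 2D. The medians ran from -0.14 to -0.0401 in HT29, from -0.09 to 0.002 in LS513, from -0.26 to -0.09 in HCT116 and from -0.001 to 0.15 in LS174T. With 3 libraries per group, changes of 0.5 on the log2 scale were often missed in simulated counts. The changed genes there were not matched to the members in level or spread, so this rate is not that of the members.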
